A study of Homo sapiens with 10 samples.

Results

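*LAMA2*, *VSNL1*, *SAMD3* and *IL6R* are the 4 genes that the study examined for JUN binding and JUN-dependent expression next to *HKDC1*. They were taken by symbol from the RNA-seq tables, 4 of the 18821 symbols that the *ZMAT3* and siRNA tables hold together, and all 4 were present in both tables. The study had picked them among genes raised in *ZMAT3*-KO cells that carried a JUN peak in other datasets. Their difference between *ZMAT3*-KO and *ZMAT3*-WT libraries is therefore described below without a test, whereas the siRNA libraries played no part in that choice. JUN binding itself was not measured in these files.

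All libraries came from HCT116, a human colorectal cancer cell line with wild-type p53, grown without drug treatment. The *ZMAT3* experiment has 3 *ZMAT3*-WT and 3 *ZMAT3*-KO libraries. The cells were isolated as single-cell clones after CRISPR/Cas9 cutting on either side of the p53 response element in intron 2 of *ZMAT3*, with both kinds of clone passing through the same puromycin selection. The study reports that only a short part of the stretch between the cuts was deleted in *ZMAT3*-KO. This lowered *ZMAT3* RNA strongly, and some remained. The study states that its knockout work used 1 *ZMAT3*-KO clone, so clone and genotype cannot be told apart and the replicates measure the spread between cultures. The siRNA experiment has 2 libraries of HCT116 cells transfected with siCTRL, a negative control siRNA, and 2 transfected with sip53, a pool of siRNAs against p53. The labels do not say whether the 2 libraries of a group came from separate cultures, so their p-values measure only the spread between these libraries.

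JUN is a subunit of AP-1, a dimeric transcription factor that recognizes the palindrome-like letters TGAGTCA, or TGACTCA on the opposite strand, mostly at enhancers far from start sites. The genes described here encode unrelated proteins. LAMA2 is the alpha-2 chain of laminin, a basement membrane protein best known from muscle. VSNL1 (visinin-like 1) is a neuronal calcium sensor, SAMD3 is a protein with a sterile alpha motif domain, and IL6R is the ligand-binding receptor chain for interleukin-6, which signals through IL6ST (gp130), JAK kinases and STAT3.

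The regions tested for JUN binding are shown here because they define these genes as a group. Every ChIP-qPCR primer of the study had 1 exact match in hg38, and every amplicon lay inside an intron. The *LAMA2* amplicon (chr6:129501504-129501590, 87 bases) is in intron 58 of the 65-exon gene at chr6:128883138-129516566 on the + strand. The *VSNL1* amplicon (chr2:17643334-17643417, 84 bases) is in intron 2 of the 4-exon gene at chr2:17539126-17657018 on the + strand. The *SAMD3* amplicon (chr6:130178835-130178934, 100 bases) is in intron 7 of the 12-exon gene at chr6:130144315-130365425 on the - strand. The *IL6R* amplicon (chr1:154418342-154418436, 95 bases) is in intron 1 of the 10-exon gene at chr1:154405193-154469450 on the + strand. All sequences are given 5′ to 3′ on the + strand of hg38, with AP-1 letters in capitals.

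LAMA2: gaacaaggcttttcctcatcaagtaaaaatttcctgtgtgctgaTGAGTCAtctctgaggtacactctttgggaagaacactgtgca

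VSNL1: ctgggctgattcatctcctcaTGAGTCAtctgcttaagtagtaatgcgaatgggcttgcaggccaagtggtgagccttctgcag

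SAMD3: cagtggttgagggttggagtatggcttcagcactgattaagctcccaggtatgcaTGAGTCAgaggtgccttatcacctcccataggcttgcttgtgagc

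IL6R: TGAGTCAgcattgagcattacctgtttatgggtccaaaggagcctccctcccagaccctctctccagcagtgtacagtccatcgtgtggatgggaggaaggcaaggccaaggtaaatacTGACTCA

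HKDC1: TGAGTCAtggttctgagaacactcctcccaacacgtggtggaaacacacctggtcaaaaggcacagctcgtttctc

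The *LAMA2*, *VSNL1* and *SAMD3* amplicons each held 1 AP-1 match. The *IL6R* amplicon held 0, but matches flanked it at 13 bases on the left and 4 bases on the right, and the run printed for *IL6R* (chr1:154418322-154418447) spans both. The *HKDC1* amplicon, 61 bases in intron 1 and shown as the reference gene of the study, likewise held 0, with 1 match at 8 bases (printed run chr10:69222828-69222903). Within 500 bases on each side there were 2 matches for *LAMA2*, 2 for *VSNL1*, 1 for *SAMD3*, 3 for *IL6R* and 1 for *HKDC1*. Of consecutive, non-overlapping windows as long as the amplicon along each gene, 1.43% held a match in *LAMA2*, 2.42% in *VSNL1*, 1.45% in *SAMD3* and 2.51% in *IL6R*. For windows that add 500 bases on each side the shares were 17.5%, 28.7%, 15.4% and 25.9% in the same order. The study designed its primers on regions with JUN peaks and marks this motif in its figures. The sites were therefore not picked independently of the motif, and nothing is read from these shares. *LAMA2* holds 114 matches over its length, *VSNL1* 37, *SAMD3* 35 and *IL6R* 19.

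**Figure D1:**
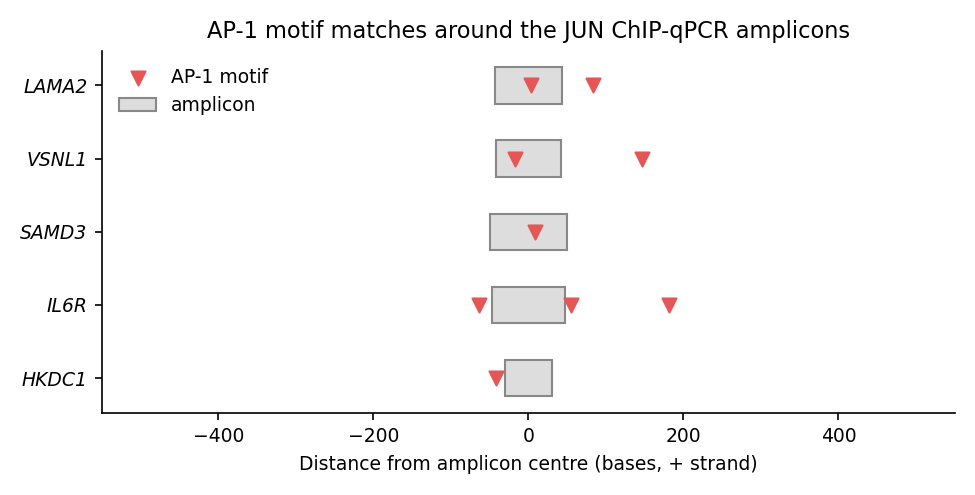
AP-1 letters (triangles; TGAGTCA or TGACTCA) within 500 bases of the JUN ChIP-qPCR amplicons (grey bars), by distance in bases from the amplicon centre on the + strand. The amplicons of *LAMA2*, *VSNL1* and *SAMD3* each hold 1 match, and those of *IL6R* and *HKDC1* hold 0 with matches just outside.

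In the promoters given by RefSeq for GRCh38.p14, which span 300 bases around each start, all 4 genes had at least 1 entry. Only *IL6R* held an AP-1 match, 37 bases past its start site, against 4.95% of the 35116 promoters in that table. Its surroundings (chr1:154405370-154405392, + strand) are shown for comparison with the intronic sites.

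IL6R, past the start site: tccgccgctcTGAGTCAtgtgcg

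*ZMAT3* RNA fell 7.43-fold in the *ZMAT3*-KO libraries and 4.96-fold with sip53 (adjusted p = 0.067 by limma). *CDKN1A*, which encodes the p53 target p21, fell 14.0-fold with sip53 (adjusted p = 0.00869 by limma). In *ZMAT3*-KO it was 1.44-fold lower (adjusted p = 2.02e-08 by limma), short of the 1.5-fold needed for a call. *JUN* RNA was higher in both experiments, by 1.53-fold in *ZMAT3*-KO (adjusted p = 1.83e-07 by limma) and by 1.52-fold with sip53 (adjusted p = 0.264 by limma). Epithelial markers of the line were present in every library, apart from *VIL1*, which was not listed in the *ZMAT3* table and stayed between 0.13 and 0.22 FPKM. Their summed level was 5757 to 6083 CPM, counts scaled to library size, in *ZMAT3*-WT and 3160 to 3242 CPM in *ZMAT3*-KO, with the keratin genes *KRT8* (-0.94), *KRT18* (-0.82) and *KRT19* (-1.75) lower on the log2 scale. Over the *ZMAT3* libraries the other listed markers varied little. *EPCAM* lay at 8.51 to 8.58 log2 CPM, *CDH1* at 6.28 to 6.41 and *CDX2* at 4.43 to 4.59. The summed muscle markers were 4.45 to 6.33 FPKM with siCTRL and 13.3 to 21.96 FPKM with sip53, nearly all of it *DES*, while *MYOD1* and *ACTC1* were not listed. In the *ZMAT3* libraries they summed to 1.88 to 2.57 CPM in *ZMAT3*-WT and 2.02 to 2.38 CPM in *ZMAT3*-KO. The summed fibroblast markers were 9.16 to 9.79 CPM in *ZMAT3*-WT and 10.4 to 10.9 CPM in *ZMAT3*-KO. They were 4.22 to 5.64 FPKM with siCTRL and 6.12 to 7.07 FPKM with sip53. The 3 neuronal markers listed, *RBFOX3*, *SNAP25* and *SYP*, summed to 0.46 to 0.83 FPKM with siCTRL and 0.55 to 1.04 FPKM with sip53. In the *ZMAT3* table, *SYP* alone was listed, at 1.26 to 1.38 CPM in *ZMAT3*-WT and 0.66 to 0.87 CPM in *ZMAT3*-KO (log2 difference -0.80, adjusted p = 0.00212 by limma). The part of these markers in the results was not tested. Depth cannot be given, since the tables hold log2 CPM and FPKM and no read counts. Fewer cells of a kind and less RNA per cell cannot be told apart in bulk libraries.

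All 4 genes were more highly expressed in *ZMAT3*-KO cells, by 3.44- to 4.68-fold on the deposited log2 CPM scale. *LAMA2* was at 3.39, 3.31 and 3.34 log2 CPM in *ZMAT3*-WT replicates 1 to 3 and at 5.53, 5.62 and 5.57 in *ZMAT3*-KO. The laminin gene thus had the largest difference of the group, 2.23 on the log2 scale, or 4.68-fold (mean 3.35 ± 0.04 against 5.57 ± 0.04, SD, n = 3). *VSNL1* was at 1.79, 1.82 and 1.72 log2 CPM in *ZMAT3*-WT and at 3.64, 3.65 and 3.71 in *ZMAT3*-KO. Its difference was 1.89, or 3.70-fold, with SDs of 0.05 and 0.04. *SAMD3*, the lowest on this scale, was at 0.74, 0.80 and 0.81 in *ZMAT3*-WT and at 2.58, 2.63 and 2.79 in *ZMAT3*-KO. Its difference was 1.88, or 3.69-fold, and its *ZMAT3*-KO libraries had the widest spread (SD 0.11). *IL6R* was at 3.32, 3.41 and 3.2 in *ZMAT3*-WT and at 5.04, 5.16 and 5.08 in *ZMAT3*-KO. Its difference was 1.78, or 3.44-fold, beside 1.8 for *HKDC1*.

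In each of the 4 genes every *ZMAT3*-KO library lay above every *ZMAT3*-WT library, as in 31.3% of all genes. The gap between the groups was many times the SD within them. By size of increase *LAMA2* ranked 58, *VSNL1* 69, *SAMD3* 71 and *IL6R* 76 among 13029 genes, with *HKDC1* at 75. Of those 13029 genes, 8.96% were called (adjusted p of 0.05 and 1.5-fold by limma), 4.6% as higher and 4.37% as lower. The 4 genes were selected in this same contrast, so nothing is read from their place in it.

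**Figure D2:**
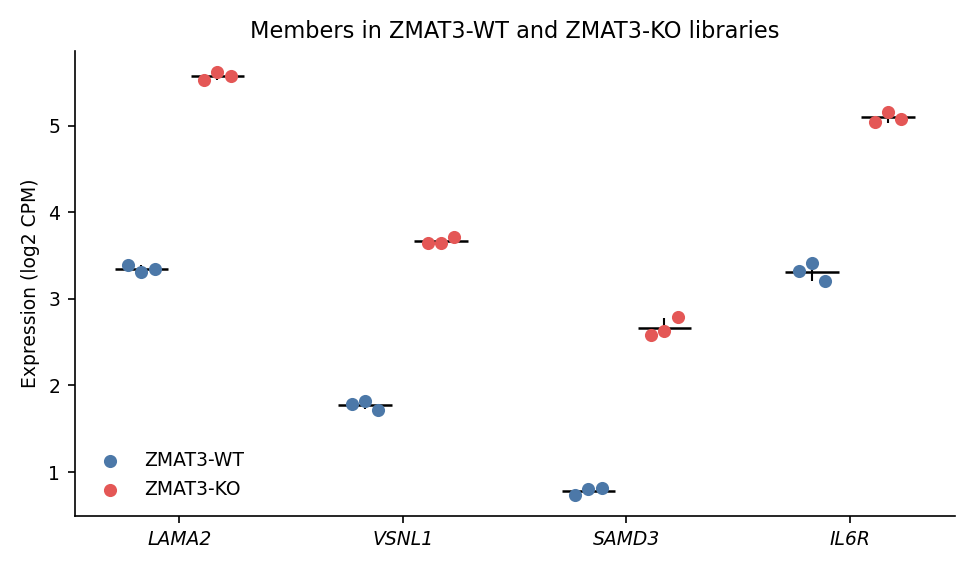
Expression in log2 CPM of the 4 genes in the 3 *ZMAT3*-WT (blue) and 3 *ZMAT3*-KO (red) libraries, with the mean (horizontal line) and SD (vertical line). For each gene the red points lie above all blue points, with the lowest red and highest blue point closest for *IL6R* (5.04 against 3.41) and farthest apart for *LAMA2* (5.53 against 3.39).

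*LAMA2* and *SAMD3* turned out to be close neighbors on chromosome 6, with 628 kb between them, and the genes around them were also higher in *ZMAT3*-KO. Of the genes within 1 Mb of *LAMA2* other than *SAMD3*, 4 were measured and 4 of 4 were called higher. *PTPRK*, a receptor tyrosine phosphatase that lies 362522 bases to the left of *LAMA2*, rose 2.52-fold (log2 difference 1.34, SE 0.04, adjusted p = 7.44e-11 by limma). *ARHGAP18*, a GTPase-activating protein 59566 bases to its right, rose 2.01-fold. *L3MBTL3*, a reader of methylated lysines that lies 2866 bases from *SAMD3*, rose 1.62-fold. *TMEM200A*, which starts 592 bases from *SAMD3* in GENCODE and runs the other way, rose 9.51-fold from 3.17 ± 0.08 to 6.42 ± 0.06 log2 CPM (SD, n = 3, adjusted p = 3.01e-14 by limma).

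From *PTPRK* to *TMEM200A* the run of measured genes was unbroken: 6 consecutive genes over 2.47 Mb, *LAMA2* and *SAMD3* among them, were all higher in *ZMAT3*-KO by 0.70 to 3.25 on the log2 scale. *LAMA2* and *SAMD3* had been selected for their increase in this same contrast, so only the other 4 genes add to it. The run was also marked out after its values were seen. The nearest measured genes outside it were not called, with -0.05 for *ECHDC1* on the left and 0.20 for *EPB41L2* on the right, and *AKAP7* beyond that was at -0.17. Of the 25 other genes measured within 5 Mb of *LAMA2* or *SAMD3*, 0 were called higher and 3 lower. These 3 were chosen after their values were seen: *CCN2*, which encodes connective tissue growth factor, at -3.77, *LINC00326* at -3.04 and the kinase gene *SGK1* at -0.82. The background of 4.6% called higher stands against 4 of 4 around *LAMA2* and 3 of 5 around *SAMD3*. Both counts leave out *LAMA2* and *SAMD3* and share *ARHGAP18*, *L3MBTL3* and *TMEM200A*.

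**Figure D3:**
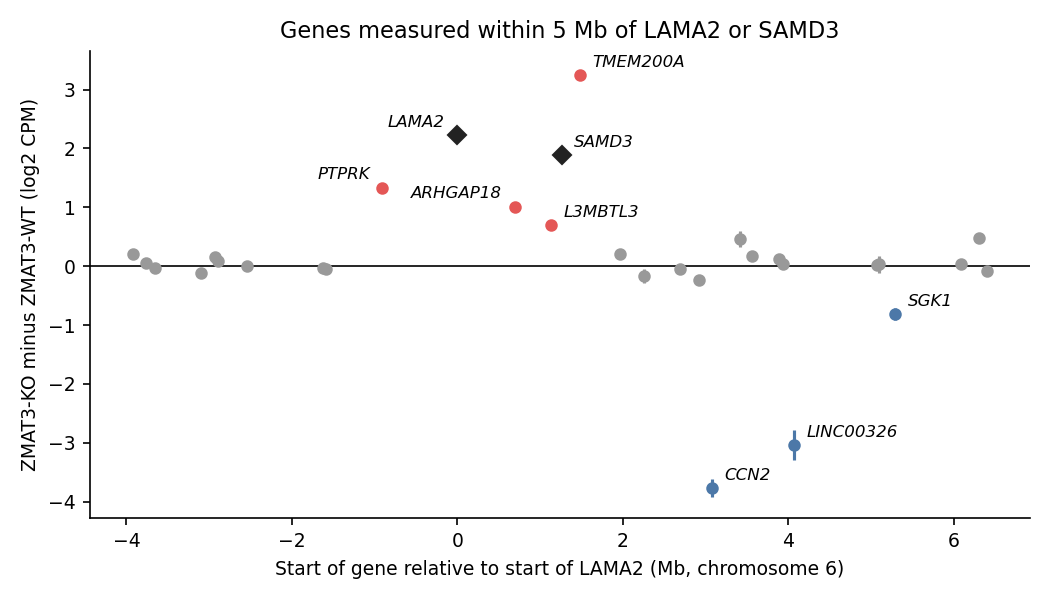
Difference between *ZMAT3*-KO and *ZMAT3*-WT (log2 CPM, with the standard error) of the 31 genes measured within 5 Mb of *LAMA2* or *SAMD3*, by the distance of their start from that of *LAMA2* in Mb. *LAMA2* and *SAMD3* (black diamonds) stand in a run of 6 raised genes, with neighbors on both sides near 0; red points were called higher, blue lower, grey not called.

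*SAMD3* and *TMEM200A* are transcribed away from each other from RefSeq start sites with 148 bases between them. This stretch (chr6:130365869-130366016, 72.3% G or C) is shown because both genes were higher in *ZMAT3*-KO. It holds no AP-1 letters, which says nothing of the factor itself.

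Between SAMD3 and TMEM200A: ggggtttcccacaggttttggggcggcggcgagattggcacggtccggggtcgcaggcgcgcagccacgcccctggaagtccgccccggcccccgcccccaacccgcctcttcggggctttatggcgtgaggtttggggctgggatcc

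Close to *VSNL1* and *IL6R* no gene was called in *ZMAT3*-KO, with 0 of 3 within 0.5 Mb of *VSNL1* and 0 of 19 within 0.5 Mb of *IL6R*. This distance was chosen after the values were seen. Of 5 measured genes within 1 Mb of *VSNL1*, 1 was called higher. The adjacent *SMC6*, a subunit of a DNA repair complex which lies 6794 bases to the right, was at -0.07, *GEN1* at -0.07 and *KCNS3* at -0.25, while *CYRIA*, a regulator of RAC1 and actin that lies 872795 bases to the left, rose by 4.24 (SE 0.41, adjusted p = 2.43e-06 by limma) from -3.01 ± 1.00 to 1.23 ± 0.20 log2 CPM (SD, n = 3). Of 54 measured genes within 1 Mb of *IL6R*, 5 were called higher and 1 lower, beside 4.6% and 4.37% of all genes. The flanking *ATP8B2* and *UBE2Q1* were at 0.32 and 0.05. The 3 largest increases were the calcium-binding S100 genes *S100A14* (2.29) and *S100A4* (1.63) and the mucin gene *MUC1* (1.10), and the decrease was that of *TRIM46* (-0.93). *S100A3* (0.80) and *S100A16* (0.72) were the other calls. The remaining measured S100 genes of this stretch, *S100A6* (0.57), *S100A2* (0.39) and *S100A13* (0.25), were also higher but not called. Raised genes thus lay side by side here too, farther from *IL6R*. Over all neighbors, 10 of 65 were called higher and 1 lower, 16.9% in all against 8.96% of all genes, with a median difference of 0.10 against -0.01 for all genes. No gene measured in either table overlapped *LAMA2*, *VSNL1*, *SAMD3* or *IL6R*.

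With sip53, where *ZMAT3* was also lower, *VSNL1* was called higher at an unadjusted p of 0.05, the threshold of the study, and *LAMA2*, *SAMD3* and *IL6R* were not called. The 95% intervals of all 4 changes overlapped, and differences between the genes were not tested. That is 1 of 4, and at this threshold 15.1% of the 14274 genes tested were called, 5.86% as higher and 9.28% as lower. With each library centered on its median gene the split of calls over all genes turned from 836 higher and 1325 lower to 1120 and 1048. At an adjusted p of 0.05, which 0.273% of genes reached, 0 of the 4 were called. Where an exact permutation test of 2 against 2 libraries cannot go below p = 0.333, limma, which shares the variance across genes, gave an unadjusted p = 0.505 for *LAMA2*, p = 0.0388 for *VSNL1*, p = 0.316 for *SAMD3* and p = 0.349 for *IL6R*.

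*VSNL1* was at 55.05 and 39.64 FPKM, fragment counts scaled to transcript length and library size, with siCTRL and at 66.1 and 82.57 FPKM with sip53. Both sip53 libraries lay above both siCTRL libraries, as in 20.1% of genes tested. The increase was 1.58-fold (log2 0.66, SE 0.24, 95% interval 0.05 to 1.27, adjusted p = 0.298 by limma). The call was lost without siCTRL replicate 2 (log2 0.42) and without sip53 replicate 2 (log2 0.50), and kept without either of the others (0.90 and 0.82). It was also lost, at the same change, with no filter on low values and without the variance trend, and over these and the other settings tried, apart from a pairing of libraries with unlike replicate numbers, limma's unadjusted p lay between 0.0283 and 0.253.

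*LAMA2* was at 4.83 and 2.46 FPKM with siCTRL and at 3.34 and 5.38 FPKM with sip53. The groups overlapped, since siCTRL replicate 1 lay above sip53 replicate 1. The log2 change was 0.29 (SE 0.41, 95% interval -0.73 to 1.31, adjusted p = 0.795 by limma). It took the opposite sign without siCTRL replicate 2 (-0.18) or without sip53 replicate 2 (-0.05).

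*SAMD3* was at 0.16 and 0.66 FPKM with siCTRL and at 0.57 and 0.7 FPKM with sip53. Its mean of 0.5225 FPKM only just passed the filter of 0.5 FPKM, and the authors' mean was 26.9 normalized counts, so a small change would not have been detectable. siCTRL replicate 1 stood apart at the low end, and the remaining siCTRL library lay between the 2 sip53 libraries. The log2 change of 0.72 had an SE of 0.65 (95% interval -0.92 to 2.36, adjusted p = 0.665 by limma). Without siCTRL replicate 1 it was -0.05, and with a pseudocount of 1 FPKM it was 0.24.

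*IL6R* was at 3.58 and 2.22 FPKM with siCTRL and at 1.82 and 2.64 FPKM with sip53. It was the only one of the 4 with a lower mean after sip53, and its groups overlapped too. The log2 change was -0.35 (SE 0.34, 95% interval -1.21 to 0.51, adjusted p = 0.689 by limma). Both sip53 libraries lay below both siCTRL libraries in 26.3% of genes tested, and *IL6R* was not among them.

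**Figure D4:**
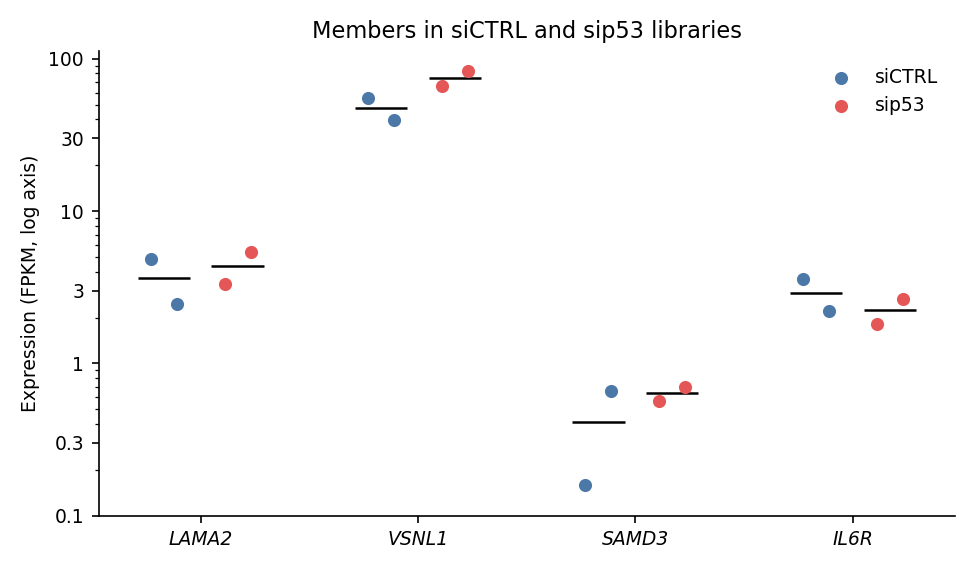
Expression in FPKM (log axis) of the 4 genes in the 2 siCTRL (blue) and 2 sip53 (red) libraries, with the mean as a line. The groups are apart for *VSNL1* (39.64 and 55.05 against 66.1 and 82.57 FPKM) and overlap for *LAMA2*, *SAMD3* and *IL6R*.

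Set beside each other, the difference in *ZMAT3*-KO and the change with sip53 were 2.23 and 0.29 for *LAMA2*, 1.89 and 0.66 for *VSNL1*, 1.88 and 0.72 for *SAMD3*, and 1.78 and -0.35 for *IL6R*. These are log2 differences within each experiment, on log2 CPM and on log2(FPKM + 0.1). The difference between the 2 effects was not tested, because the tables were normalized separately.

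*HKDC1*, which encodes a hexokinase, is the gene on which the study centers. It was at 1.16 and 1.58 FPKM with siCTRL and at 2.71 and 2.97 FPKM with sip53, 2.02-fold higher (log2 1.01, SE 0.28, 95% interval 0.32 to 1.71, adjusted p = 0.206 by limma). Its sip53 interval overlapped those of *LAMA2*, *VSNL1*, *SAMD3* and *IL6R*. The other JUN candidates of the study differed among themselves. By RT-qPCR the study found *SLC2A1* and *SREBF1* unchanged by JUN knockdown in HCT116 cells. It found no consistent JUN binding at *CD36* and *WEE1* over the cell lines it compared. *SLC2A1*, the glucose transporter GLUT1, fell in both experiments, by 1.75 on the log2 scale in *ZMAT3*-KO (adjusted p = 2.58e-13 by limma) and by 1.26 with sip53 (adjusted p = 0.125 by limma). *SREBF1* (a regulator of lipid synthesis) was at -0.03 and 0.14 and the cell cycle kinase gene *WEE1* at 0.09 and 0.30, and 0 of these were called in either experiment. The fatty acid transporter gene *CD36* was at 0 to 0.06 FPKM, under the filter, and was not listed in the *ZMAT3* table.

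**Figure D5:**
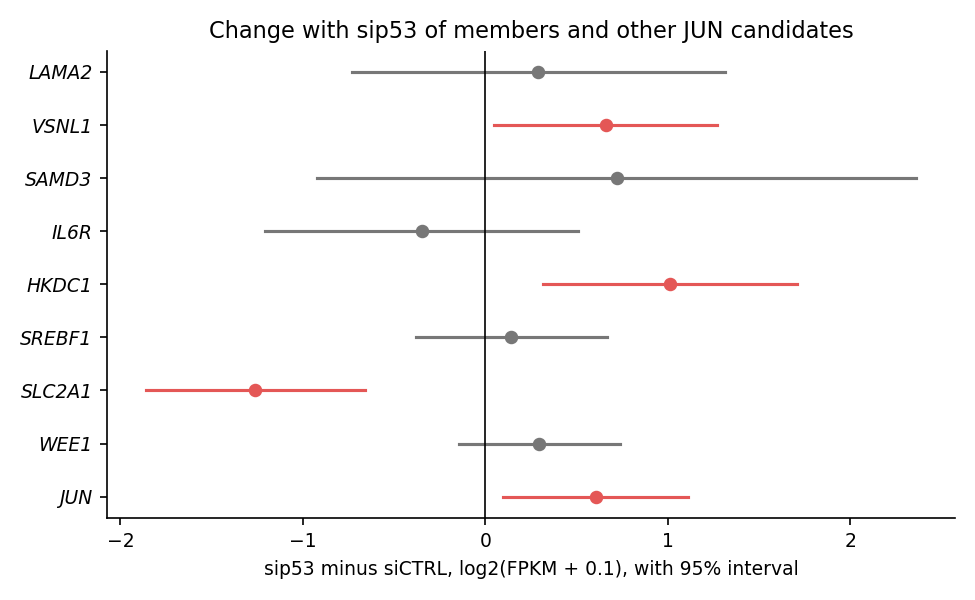
Log2 change with sip53, on log2(FPKM + 0.1), with its 95% interval (limma) for the 4 genes, *HKDC1*, 3 other JUN candidates and *JUN*. Red marks genes called at an unadjusted p of 0.05: *VSNL1* at 0.66, *HKDC1* at 1.01 and *JUN* at 0.61 were higher and *SLC2A1* at -1.26 was lower.

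If the values are FPKM, as read here from their scale, they are per length and levels can be set against each other between genes. In the siRNA libraries *VSNL1* was by far the highest at 39.64 to 82.57 FPKM, followed by *LAMA2* at 2.46 to 5.38, *IL6R* at 1.82 to 3.58 and *SAMD3* at 0.16 to 0.7 FPKM. The ranges of *LAMA2* and *IL6R* overlap, and those of the others do not. The authors' mean of normalized counts was 2753 for *VSNL1*, 361 for *IL6R*, 216 for *LAMA2* and 26.9 for *SAMD3*. These counts, which are not per length, put *IL6R* above *LAMA2*, the reverse of their order in FPKM. The transcript lengths behind the FPKM values were not checked, so the order of *LAMA2* and *IL6R* is uncertain. As a share of the summed means of all genes, *VSNL1* reached 89.3 CPM in the siRNA experiment, while its mean was 3.43 CPM in *ZMAT3*-WT and 12.7 CPM in *ZMAT3*-KO. This 26.0-fold excess over *ZMAT3*-WT was passed by 4 of the 11608 genes found in both tables, ranked on a log2 scale with 0.5 added. The corresponding ratio was 0.689 for *LAMA2* and 0.505 for *SAMD3*, and *IL6R* was at 11.7 CPM against 9.93 CPM in *ZMAT3*-WT. The tables were normalized separately and come from separate experiments, so these ratios are values and were not tested. The paper describes the library preparation of the *ZMAT3* libraries only, so whether it differed is not known here.

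Partners of the 4 genes were taken from lists and are described by role. Laminin is a trimer, and its alpha-2 chain pairs with beta and gamma chains. Of those, *LAMB1* was at -0.36 in *ZMAT3*-KO and 0.16 with sip53, *LAMC1* at 0.18 and 0.47, and *LAMB2* was called higher in *ZMAT3*-KO (0.62, adjusted p = 1.03e-06 by limma) and was at -0.67 with sip53. *DAG1*, the laminin receptor dystroglycan, was at -0.07 in *ZMAT3*-KO and fell 1.60-fold with sip53 (adjusted p = 0.209 by limma). Of 18 laminin chains, receptors and basement membrane genes, 2 were called higher in *ZMAT3*-KO, *ITGB4* (0.97) and *LAMB2*, and 1 lower, *LAMC3* (-0.60), with a median of 0.07. With sip53 2 of 18 were called higher, *LAMA4* (1.10) and *ITGB1* (0.66), and 4 lower, led by *LAMA3* (-2.04), *HSPG2* (-1.31) and *BCAM* (-0.97), with a median of -0.03 against -0.04 for all genes. The called shares were 16.7% in *ZMAT3*-KO and 33.3% with sip53, against 8.96% and 15.1% of all genes.

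Among neuronal calcium sensors, the family of VSNL1, *HPCAL1* was at -0.15 in *ZMAT3*-KO and -0.18 with sip53, and *NCS1* at -0.05 and -0.23. *NCALD* was not listed in the *ZMAT3* table and was at 0.42 with sip53. In *ZMAT3*-KO 0 of 5 were called higher and 1 lower (*KCNIP3*, -0.80), and with sip53 1 of 7 was called higher (*HPCAL4*, 0.60) and 0 lower. The medians were -0.34 and 0.30, and the called shares 20% and 14.3%. Among genes named for a SAM domain, 3 of 12 were called higher in *ZMAT3*-KO, *SAMD11* (2.40), *SAMD13* (1.10) and *SAMD5* (0.76), and 1 lower, *SAMD9* (-0.67), with a median of 0.26. With sip53 1 of 11 was called higher (*SAMD1*, 0.57) and 3 lower, with a median of -0.29. *SAMD9*, an interferon-inducible antiviral gene, was at 13.65 and 11.56 FPKM with siCTRL against 1.53 and 1.39 FPKM with sip53 and fell 8.12-fold (adjusted p = 0.0291 by limma). *SAMD10* (-1.17) and *SAMHD1* (-0.68), which encodes a nucleotide hydrolase, were the others. The called shares were 33.3% in *ZMAT3*-KO and 36.4% with sip53. For both lists the shares over all genes were 8.96% and 15.1%, and the medians of all genes -0.01 and -0.04. The calcium sensor share with sip53 was near that of all genes.

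Of the signaling partners of IL6R, the ligand gene *IL6* was listed in neither table. The co-receptor gene *IL6ST* was at 0.08 in *ZMAT3*-KO and -0.29 with sip53. The sheddases that release soluble receptor were at -0.33 and -0.07 for *ADAM10* and at 0.17 and 0.32 for *ADAM17*, and the kinase gene *JAK1* was at -0.01 and -0.26. *STAT3* was at -0.07 in *ZMAT3*-KO and fell 1.40-fold with sip53 (adjusted p = 0.302 by limma), while the feedback inhibitor gene *SOCS3* was at -0.31 in *ZMAT3*-KO and rose 1.63-fold with sip53 (adjusted p = 0.176 by limma). Of 19 list members in *ZMAT3*-KO 1 was called higher, the inhibitor gene *SOCS1* (0.92), and 1 lower, the cytokine gene *LIF* (-0.97), with a median of -0.07. Of 20 with sip53 1 was called higher, *SOCS3*, and 2 lower, *STAT3* among them, with a median of -0.04. The called shares of 10.5% and 15% were near those of all genes, 8.96% and 15.1%.

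Genes that the study examined as JUN targets or that textbooks give as AP-1 targets went in both directions. The study found *SLC2A1* and *SREBF1* unchanged by JUN knockdown in these cells, so a place on the list does not mean JUN control here. In *ZMAT3*-KO 4 of 24 were called higher and 3 lower, with a median of -0.01. The higher ones were led by the matrix protease gene *MMP14* (3.86), *HKDC1* (1.8) and the osteopontin gene *SPP1* (1.03), and the lower ones were *SLC2A1* (-1.75), *LIF* (-0.97) and the phosphatase gene *DUSP1* (-0.69). With sip53 5 of 28 were called higher and 4 lower, with a median of 0.16. The higher ones were led by *HKDC1* (1.01), the chemokine gene *CXCL8* (0.99) and the heme oxygenase gene *HMOX1* (0.73), and the lower ones by *SLC2A1* (-1.26) and the cyclin D1 gene *CCND1* (-0.95). *JUN* and *HKDC1* are part of this list, and the study had already followed *HKDC1* for its increase in *ZMAT3*-KO cells. The called shares were 29.2% in *ZMAT3*-KO against 8.96% of all genes and 32.1% with sip53 against 15.1%, and such lists were not tested as sets.

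The neighbors of the 4 genes were also followed with sip53, where 4 of 69 were called higher and 11 lower, 21.7% in all against 15.1% of all genes, with a median of -0.02. In the chromosome 6 run *PTPRK* was at 23.61 and 23.62 FPKM with siCTRL against 16.19 and 13.78 FPKM with sip53 and fell by 0.66 (adjusted p = 0.209 by limma), the reverse of its direction in *ZMAT3*-KO. *TMEM200A* was at 4.71 and 5.38 FPKM with siCTRL against 7.41 and 7.25 FPKM with sip53 and rose by 0.53 (adjusted p = 0.288 by limma). *ARHGAP18* (0.20) and *L3MBTL3* (-0.29) were not called. Around *VSNL1* 0 of 5 were called. Around *IL6R* 3 of 58 were called higher and 10 lower. *FDPS* (0.85), a sterol synthesis enzyme, and *CKS1B* (0.79), a cell cycle regulator, led the first, and *PBXIP1* (-1.11), the RNA editing enzyme gene *ADAR* (-1.03) and the adaptor gene *SHC1* (-0.92) led the second.

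Likeness between genes was measured as the root mean squared difference over the 10 libraries, each value centered on the mean of its own control group, among 11370 genes tested in both tables. The nearest to *LAMA2* were *S100A14* (0.11), *KNOP1* (0.14) and *GPER1* (0.25). The nearest to *VSNL1* were *CA12* (0.18), *ARMC4* (0.18) and *MPP7* (0.19). The nearest to *SAMD3* were *ACVRL1* (0.28), *HKDC1* (0.30) and *TPBG* (0.36), and those to *IL6R* were *MT-RNR1* (0.18), *MEX3A* (0.22) and *GPNMB* (0.23). Among the 4 genes the closest pair was *LAMA2* and *VSNL1* (0.28) and the farthest *SAMD3* and *IL6R* (0.70). *HKDC1* was nearer to *VSNL1* (0.27) and *SAMD3* (0.30) than to *LAMA2* (0.52) or *IL6R* (0.67). The libraries share their controls and normalization within each table, so these distances are descriptions.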

How the data were processed

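RNA-seq was performed in 10 HCT116 libraries. For the *ZMAT3* libraries the authors ran Cutadapt, STAR against hg38 and RSEM and deposited log2 CPM values. The 6 libraries share a single distribution of values, as quantile normalization gives, and that step is not given in the sources used here. For the siRNA libraries the authors deposited values read here as FPKM from their scale, with an authors' mean signal per gene (normalized counts). The submitters' processing notes name CASAVA 1.8.2, TopHat2 2.0.8 and FastQC 0.11.2 and the builds hg19 and hg38, with no role. The deposited fold changes (ratio and log2), standard error and test score, and p-values are the authors' comparisons and were not used. Columns were assigned by sample title, and symbols matched to GENCODE or to older names in RefSeq.

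Linear models were fitted separately for the *ZMAT3* and siRNA values (limma 3.58.1, R 4.3.3, moderated by eBayes including a mean-variance trend, both directions tested, adjusted after Benjamini and Hochberg over every gene fitted). All 13029 genes of the *ZMAT3* table entered, and a call required adjusted p of 0.05 plus 1.5-fold. The siRNA values entered as log2(FPKM + 0.1), keeping the 14274 genes that averaged 0.5 FPKM or more, with calls at an unadjusted p of 0.05. Adding 0.1 makes changes of weakly expressed genes look smaller. Read counts per library were not used here, so the depth is unknown and no count model was fitted. The fitting script was tested on simulated data.

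The 4 genes and the lists were chosen with earlier results of these data known. Named genes are the 4 genes, *HKDC1* and the study's other JUN candidates, fixed partners by role, at most 3 called genes of each list and direction by size, the nearest neighbors, and the 3 genes nearest in likeness. *ECHDC1*, *EPB41L2*, *AKAP7*, *GEN1*, *KCNS3* and the chromosome 6 run as a unit were added after their values were seen. So were *S100A3*, *S100A16*, *S100A6*, *S100A2* and *S100A13*. Neighbors are annotated genes within 1 Mb. ChIP-qPCR primers came from the study's primer list and were matched to hg38 with Python 3.11.15, and AP-1 letters were searched on both strands within 500 bases. Alternatives were a pseudocount of 1, other filters, centering on the median gene, a fit lacking the variance trend, blocking on replicate number, and leaving out each library. RT-qPCR, ChIP-qPCR, proteomics and other siRNAs were not analysed here, and a few genes of the rule are not reported here.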

Additional observations from a re-analysis of the deposited data

How the results depend on the processing

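With a pseudocount of 1 the *ZMAT3*-KO differences shrank to 2.12 for *LAMA2*, 1.63 for *VSNL1*, 1.43 for *SAMD3* and 1.69 for *IL6R*, and no calcium sensor was called (0, from 1). Leaving out each library in turn moved them between 2.2 and 2.25, 1.86 and 1.91, 1.82 and 1.93, and 1.73 and 1.83, in the same order. The sip53 changes ranged from -0.18 to 0.76 for *LAMA2* (-0.18 without siCTRL replicate 2 and -0.05 without sip53 replicate 2), from 0.42 to 0.90 for *VSNL1*, from -0.05 to 1.49 for *SAMD3* (-0.054 without siCTRL replicate 1) and from -0.68 to -0.02 for *IL6R*. The *VSNL1* change of 0.66 missed the threshold with no filter and no variance trend, which left 0 of the 4 genes called, and *SAMD3* has no value under a filter of 1 FPKM. Leaving out a library gave 0 to 1 of the 4 genes, 1185 to 1891 of all genes with sip53, and, for the lists with sip53, 4 to 8 AP-1 targets, 2 to 4 laminin genes, 0 to 1 calcium sensors, 1 to 3 SAM domain genes, 1 to 3 IL6 signaling genes and 5 to 10 neighbors. In *ZMAT3*-KO it gave 1154 to 1201 of all genes, 7 to 8 AP-1 targets, 2 to 3 laminin genes, 1 to 2 calcium sensors, 4 to 5 SAM domain genes, 2 IL6 signaling genes and 11 to 13 neighbors. At an adjusted p of 0.05 the sip53 calls fell to 39 genes, with 1 in the SAM domain list and 0 in the others and among the 4 genes. The cause of these moves was not tested.

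Replicate numbers did not pair the libraries. The deviations of same-numbered *ZMAT3* libraries correlated at -0.039, -0.022 and -0.093 over genes and no library correlated best with its own number, and those of the siRNA libraries at -0.62. With the replicate number as a block the sip53 calls were 1084 genes, 0 of the 4 genes (*VSNL1* 0.66, no longer called), 4 AP-1 targets, 3 laminin genes, 0 calcium sensors, 2 SAM domain genes, 1 IL6 signaling gene and 4 neighbors, while the block changed no *ZMAT3* count by over 1.5 times. A crossed pairing of the siRNA libraries, chosen after seeing the data, called 5538 genes, 1 of the 4 genes, 16 AP-1 targets, 10 laminin genes, 2 calcium sensors, 5 SAM domain genes, 8 IL6 signaling genes and 36 neighbors. Also chosen after seeing the data, neighbors within 0.5 Mb gave 4 calls in *ZMAT3*-KO and 7 with sip53, and those within 5 Mb gave 27 and 30.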
